A study of Mus musculus with 7 samples.

Results

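Monocytes leave the blood, enter a tumor and mature there into macrophages, and other macrophages settle in a tissue early in life and renew themselves in place. Both kinds engulf dying cells and debris, release cytokines and shape the response of T cells. They are abundant in pancreatic ductal adenocarcinoma (PDA), and most depend on the receptor CSF1R and its ligand CSF1. The 32 genes described here are known marks of these cells and were picked by symbol from the 22629 rows of a table of read counts. They fall into 7 subsets, namely 4 monocyte genes, 8 genes shared by the macrophage lineage, the growth factor gene Csf1, 7 complement and lipid genes, 6 genes of scavenger receptors and alternative activation, 4 genes of tissue-resident macrophages and the 2 TAM receptor genes Mertk and Axl. All 32 genes were in the table, and 31 had enough counts for a test.

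RNA was sequenced from 7 subcutaneous tumors of C57BL/6 mice, each taken 2 weeks after inoculation. The cancer cells of both groups came from 1 line of a mouse pancreatic tumor, in which Cre under the pancreatic Pdx1 promoter switches on mutant alleles that include Trp53, and they had received Cas9 with a scrambled guide and puromycin selection. sgScramble tumors (n = 3) were formed with these control cells. icOVA tumors (n = 4) were formed with control cells that also carried ovalbumin (OVA), an antigen foreign to the mouse, kept in the cytoplasm and induced by doxycycline in the food from the day of inoculation. By its name in the methods, the vector for ovalbumin also held a gene for green fluorescent protein (GFP). The icOVA cells were sorted and cloned from single cells after transduction. The methods give a larger inoculum for tumors with inducible ovalbumin than for others. Where they differed between the groups, the antigen, the vector with GFP, the doxycycline, the cloning and the inoculum cannot be told apart. Tumors with visible ulcers had been left out by the authors. Whether the sgScramble cells of these tumors were a clone, carried the vector or grew in mice fed doxycycline is not stated in the sources used here. By the methods, the C57BL/6 mice were bought at an age of 6 weeks and kept for 2 weeks before experiments began. The labels give each tumor as a sample of its own, and the counts of replicates differed beyond sampling noise.

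The 3 sgScramble tumors, numbered 1, 4 and 5, had 34723344, 32771160 and 30904855 counts in total. The 4 icOVA tumors, numbered 15, 16, 18 and 2, had 37510591, 35612477, 34436971 and 32062089. OVA had 85 to 151 counts in sgScramble tumors and 3413 to 10750 in icOVA tumors, so the tumors labeled with OVA had the higher counts. Where the OVA counts of the sgScramble tumors came from was not tested. Defining genes of macrophages were present in every tumor, with at least 1250 counts of Adgre1, 2181 of Cd68 and 6316 of Csf1r. Levels are given as CPM, the counts of a gene relative to a library size that the TMM method scales for composition. The groups were compared across all 17489 genes with enough counts by the quasi-likelihood test of edgeR. Adjustment over all these genes was by Benjamini-Hochberg, and a gene was called higher or lower at an adjusted p below 0.05.

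Of the 31 tested genes, 10 rose in icOVA tumors, namely Ly6c2, Cd68, Lyz2, Tyrobp, Aif1, Ctss, Gpnmb, Msr1, Marco and Mertk, where edgeR called 3.36% of all tested genes higher. When libraries were instead scaled to Ptprc, the gene for the leukocyte antigen CD45, 4 of the 31 were called higher (Ly6c2, Gpnmb, Marco and Retnla), where 0.400% of all genes were, and 13 lower, where 80.4% of all genes were. With TMM scaling 0 were called lower by edgeR, where 2.54% of all genes were, and 1, Spp1, was lower at an unadjusted p below 0.05, where 13.8% of all genes were lower and 13.4% higher. DESeq2 called 13 higher and Spp1 lower, where it called 8.91% and 7.31% of all genes, and limma-voom called 10 higher and 0 lower, where it called 2.96% and 2.42%. In 12 genes all 4 icOVA tumors lay above all 3 sgScramble tumors, as in 11.3% of all tested genes, and in Spp1 all 4 lay below, as in 13.3%. The median log2 fold change of the 31 genes was 0.62, against -0.0048 over all tested genes, and turned to -0.49 with the scaling to Ptprc, which moved the median of all genes to -1.10 and left the macrophage genes 0.61 above it. Ptprc itself rose by a log2 fold change of 1.08 (SE 0.18, edgeR adjusted p = 0.0271, above every sgScramble tumor in 4 of 4 icOVA tumors). In whole tumors, more cells of a type and more RNA per cell cannot be told apart.

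The calls depended on which tumors were included. Without sgScramble tumor 1, without sgScramble tumor 5 and without icOVA tumor 15, the count of called genes was 0 among the macrophage genes and 0 in the whole table, and 13, 11 and 11 macrophage genes were higher at an unadjusted p below 0.05 in edgeR, where 9.10%, 8.62% and 10.3% of all genes were. Gpnmb was the 1 macrophage gene called without icOVA tumor 2, among 8 genes of the table. Without icOVA tumor 16, 13 of the 31 genes were called higher, where 5.88% of all genes were. Without icOVA tumor 18 there were 8, with Aif1 and Mertk lost (3.58% of all genes), and without sgScramble tumor 4 there were 11, with Marco lost (4.82%). The median of the 31 genes stayed between 0.50 and 0.71 when each tumor was left out.

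**Figure D1:**
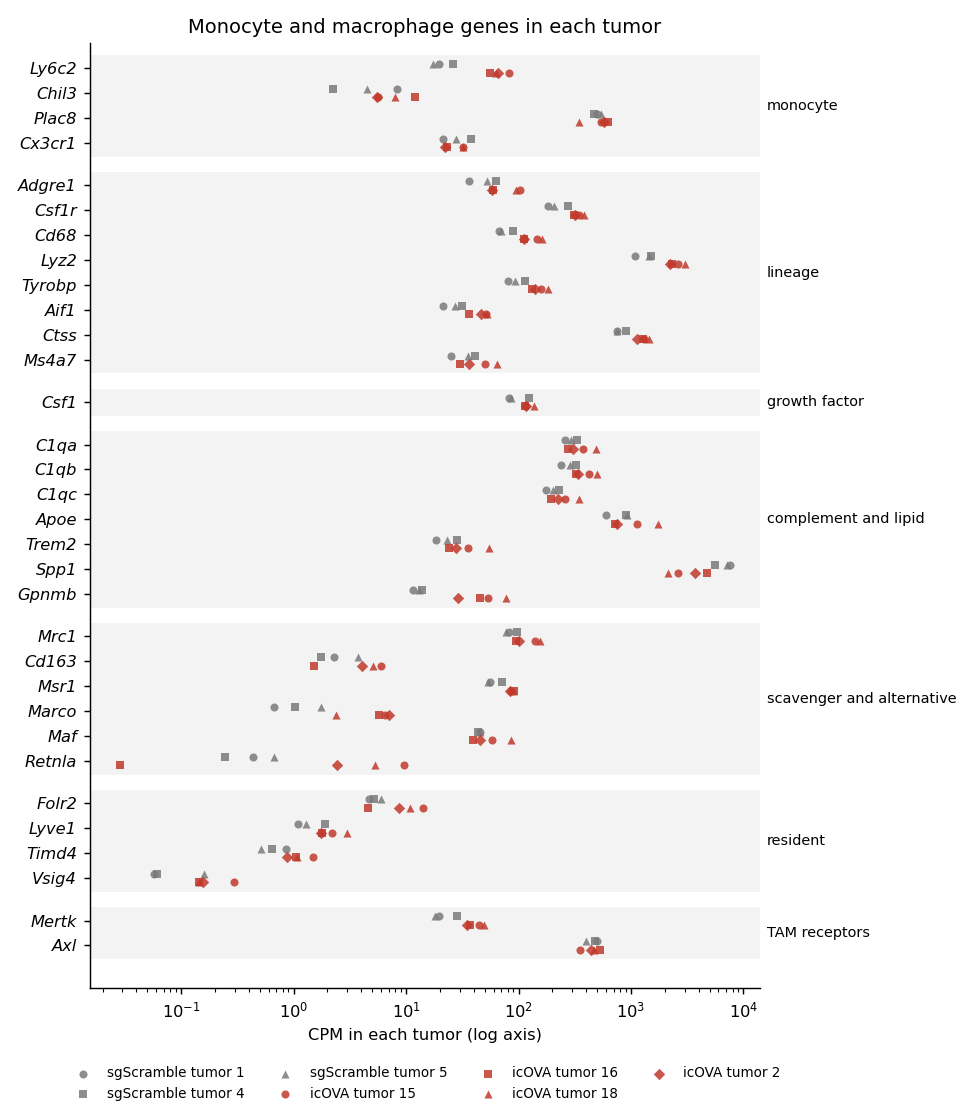
CPM of each of the 32 genes in each tumor on a log axis, grouped by subset, with sgScramble tumors in grey and icOVA tumors in red. Ly6c2 lay between 56.1 and 83.0 CPM in icOVA tumors and between 17.2 and 26.3 CPM in sgScramble tumors, while Plac8 and Axl overlapped, and Retnla was lowest in icOVA tumor 16.

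Of the 4 monocyte genes, Ly6c2 alone was called. Ly6c2 encodes the surface protein Ly6C of classical inflammatory monocytes and lies on chromosome 15 from 75108158 to 75111970 (GRCm38, as the other coordinates). It had 19.8, 26.3 and 17.2 CPM in sgScramble tumors 1, 4 and 5, and 83.0, 56.1, 63.5 and 65.0 CPM in icOVA tumors 15, 16, 18 and 2. No icOVA tumor came near the sgScramble tumors, and the log2 fold change was 1.66 (SE 0.18, edgeR adjusted p = 0.0219). Which cells of the tumors the Ly6c2 reads came from was not tested. Chil3 encodes a chitinase-like lectin that monocytes make as they leave the marrow, and its values of 2.25 to 8.23 CPM and 5.57 to 11.9 CPM overlapped (log2 fold change 0.63, SE 0.45, edgeR adjusted p = 0.399), with a log2 fold change of 0.29 without sgScramble tumor 4, 0.35 without icOVA tumor 16 and 1.20 without sgScramble tumor 1. Plac8, which marks classical monocytes and is also known in pancreatic cancer cells, averaged 501 ± 33.9 CPM in the 3 sgScramble tumors and 522 ± 126 CPM in the 4 icOVA tumors (SD). Cx3cr1, the fractalkine receptor of patrolling monocytes and many tissue macrophages, averaged 28.7 ± 8.15 CPM in the 3 and 27.3 ± 5.46 CPM in the 4 (SD). The difference between the groups was smaller than the spread between tumors for both, and a difference between Ly6c2 and the other monocyte genes was not tested.

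All 8 genes of the macrophage lineage had positive log2 fold changes, from 0.41 to 0.91, which all turned negative when scaled to Ptprc, from -0.71 for Ms4a7 to -0.19 for Lyz2, and 5 were called higher. The lowest value was in sgScramble tumor 1 for each of them but Ctss, and the highest in icOVA tumor 18 for each but Adgre1. Lyz2, which encodes lysozyme, had 1088, 1511 and 1453 CPM in sgScramble tumors 1, 4 and 5 and 2617, 2317, 2993 and 2244 CPM in icOVA tumors 15, 16, 18 and 2. The groups did not overlap, and Lyz2 rose by 0.91 on the log2 scale (SE 0.16, edgeR adjusted p = 0.0277). Ctss, a lysosomal protease that trims antigens for presentation, had 756, 898 and 751 CPM in sgScramble tumors and 1314, 1290, 1457 and 1138 CPM in icOVA tumors. It rose by 0.70 with the smallest error of the lineage genes (SE 0.11, edgeR adjusted p = 0.0271). Cd68, a lysosomal membrane protein, Aif1, an actin-binding protein also called Iba1, and Tyrobp, the DAP12 adaptor that signals for TREM2 and other receptors, rose by 0.82, 0.80 and 0.69, each with all 4 icOVA tumors above the sgScramble tumors (edgeR adjusted p from 0.0360 to 0.0418).

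Csf1r and its ligand Csf1 both missed the threshold with all tumors. Without sgScramble tumor 4 both were called, at log2 fold changes of 0.82 and 0.52, and Csf1r also without icOVA tumor 16. Csf1r, on chromosome 18 from 61100598 to 61132149, had 182, 275 and 205 CPM in sgScramble tumors 1, 4 and 5 and 344, 312, 384 and 319 CPM in icOVA tumors 15, 16, 18 and 2. The groups did not overlap, but the log2 fold change of 0.62 (SE 0.15) had an edgeR adjusted p of 0.0524, and limma-voom, DESeq2 and a filter of at least 10 counts in every tumor called it. Csf1 is made by fibroblasts, endothelium and cancer cells as well as leukocytes. It had 82.2, 124 and 86.2 CPM in sgScramble tumors and 114, 114, 138 and 116 CPM in icOVA tumors, so that sgScramble tumor 4 lay inside the icOVA range (log2 fold change 0.31, 95% interval -0.04 to 0.66, and 0.20 without sgScramble tumor 1). Adgre1, the F4/80 antigen, was high in icOVA tumors 15 and 18, at 104 and 95.1 CPM, while icOVA tumors 16 and 2, at 59.4 and 58.2 CPM, lay below sgScramble tumor 4 at 62.7 CPM. Ms4a7, a membrane protein of mature macrophages, also overlapped (log2 fold change 0.41, SE 0.28, 0.23 without sgScramble tumor 1 and 0.19 without icOVA tumor 18).

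**Figure D2:**
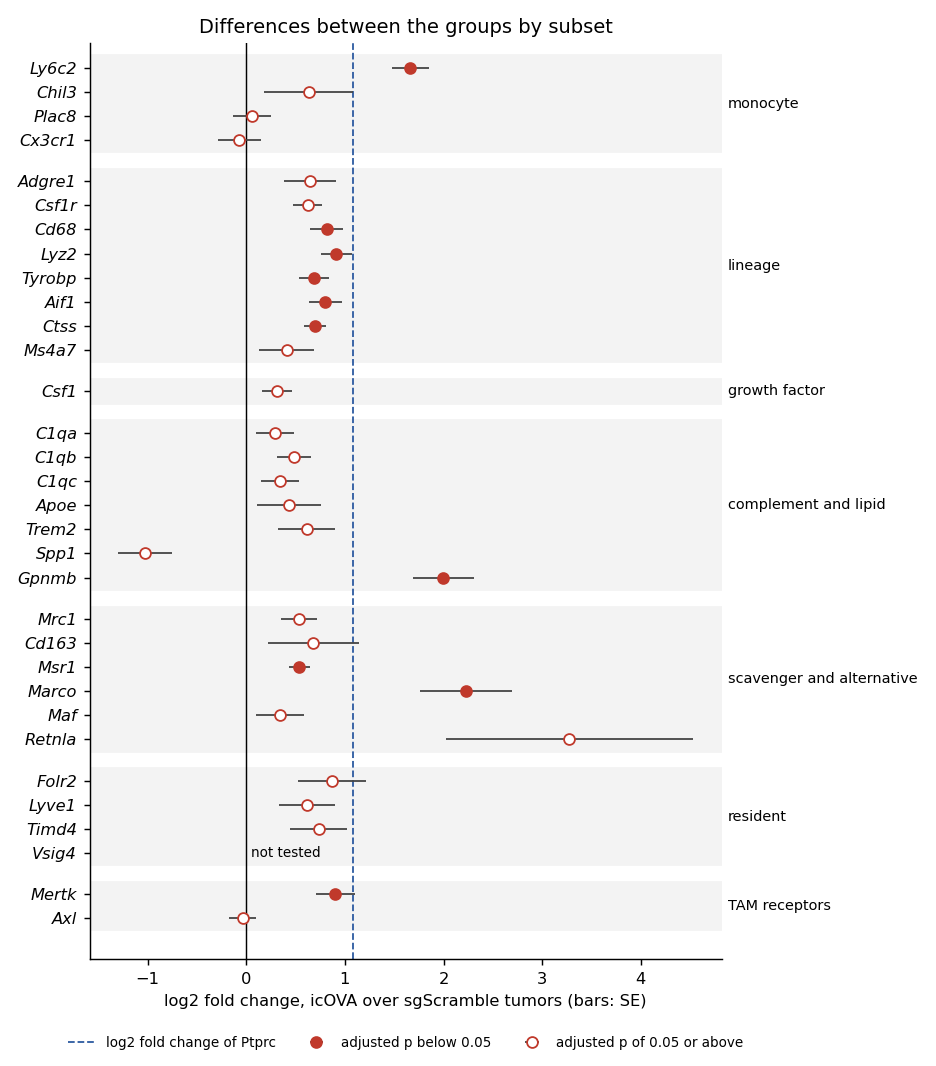
Log2 fold change of each tested gene between icOVA and sgScramble tumors by subset, with bars of 1 SE, filled where the edgeR adjusted p was below 0.05, and a dashed line at the value of Ptprc, 1.08. Lineage genes lie between 0.41 and 0.91, left of the line, so that all 8 turn negative when scaled to Ptprc, while Ly6c2, Gpnmb, Marco and Retnla lie right of it and stay positive.

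Complement and lipid genes mark mature macrophages that clear debris, and their log2 fold changes ran from -1.02 to 2.00. Gpnmb encodes a glycoprotein of phagosomes and lysosomes that macrophages make when loaded with lipid, and it lies on chromosome 6 from 49036546 to 49070929. It had 11.4, 13.9 and 13.1 CPM in sgScramble tumors 1, 4 and 5 and 53.3, 45.3, 77.2 and 28.9 CPM in icOVA tumors 15, 16, 18 and 2. Even icOVA tumor 2, the lowest, was above each sgScramble tumor, and Gpnmb rose by 2.00 on the log2 scale (SE 0.31, edgeR adjusted p = 0.0249). Spp1 encodes osteopontin, a secreted phosphoprotein of a tumor macrophage state and of many carcinoma cells. It had 7562, 5607 and 7145 CPM in sgScramble tumors and 2644, 4784, 2146 and 3738 CPM in icOVA tumors. All icOVA tumors lay below all sgScramble tumors, and tumor 18, the highest for Gpnmb, was the lowest for Spp1. Its log2 fold change was -1.02 (SE 0.27, 95% interval -1.65 to -0.40), the edgeR adjusted p was 0.0656, and without icOVA tumor 16 it was called lower at -1.25. Which cells the Spp1 reads came from was not tested.

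The 3 chains of complement C1q are encoded side by side on chromosome 4, C1qb from 136880129, C1qc from 136889804 and C1qa to 136898803. They had log2 fold changes of 0.29, 0.34 and 0.48 for C1qa, C1qc and C1qb, none of which passed the test of edgeR, while DESeq2 called C1qb. C1qa had 258, 332 and 294 CPM in sgScramble tumors 1, 4 and 5 and 374, 277, 484 and 306 CPM in icOVA tumors 15, 16, 18 and 2. Only tumors 15 and 18 exceeded sgScramble tumor 4, and the same held for C1qc, Apoe and Trem2 with respect to the highest sgScramble tumor. Apoe, the lipid carrier apolipoprotein E, reached 1737 CPM in icOVA tumor 18 but was 716 and 755 CPM in icOVA tumors 16 and 2, below the 895 and 915 CPM of sgScramble tumors 4 and 5. Trem2, a lipid receptor that signals through Tyrobp, had 54.9 CPM in icOVA tumor 18 and 24.2 to 35.6 CPM in the other icOVA tumors, against 18.4 to 28.5 CPM (log2 fold change 0.61, SE 0.29). The median of the subset was 0.43, and 0.17 without icOVA tumor 18, where C1qa had 0.12, C1qc 0.17, Apoe 0.11 and Trem2 0.33. Apoe also had 0.26 without sgScramble tumor 1, against 0.43 with all tumors.

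Of the scavenger receptors, Marco and Msr1 were called higher. Marco, which binds bacteria and particles, had 23, 34 and 55 counts in sgScramble tumors 1, 4 and 5 and 241, 199, 82 and 225 counts in icOVA tumors 15, 16, 18 and 2. All icOVA tumors were above all sgScramble tumors, tumor 18 by the least, and Marco rose by 2.23 on the log2 scale (SE 0.47, edgeR adjusted p = 0.0388), a gene that limma-voom did not call. Msr1, the type A scavenger receptor for modified lipoproteins, had 55.7, 71.3 and 53.7 CPM in sgScramble tumors and 84.9, 91.2, 89.0 and 84.7 CPM in icOVA tumors. It rose by 0.54 (SE 0.11, edgeR adjusted p = 0.0344) without overlap between the groups. Its icOVA tumors were the closest to each other of all 32 genes, with the highest at 1.08 times the lowest. When scaled to Ptprc, Marco stayed higher, by 1.12, and Msr1 turned to -0.52.

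The other 4 genes of this subset did not pass the test of edgeR, and DESeq2 called 1 of them, Mrc1. Mrc1, the mannose receptor CD206, averaged 84.8 ± 10.1 CPM in the 3 sgScramble tumors and 123 ± 29.4 CPM in the 4 icOVA tumors (SD), with icOVA tumor 16 at 95.8 CPM just below sgScramble tumor 4 at 96.1 CPM. Cd163, the receptor for haptoglobin and hemoglobin, had 58 to 116 counts in sgScramble tumors and 53 to 222 in icOVA tumors (log2 fold change 0.68, SE 0.46, with 0.46 without icOVA tumor 15 and 1.03 without sgScramble tumor 5). Maf, a transcription factor of resident and alternatively activated macrophages, was steady in sgScramble tumors, at 43.8 to 45.8 CPM, and ran from 39.0 to 85.6 CPM in icOVA tumors (log2 fold change 0.34, SE 0.25, and 0.0807 without icOVA tumor 18). Retnla, a secreted protein that interleukin-4 induces, had 15, 8 and 21 counts in sgScramble tumors 1, 4 and 5 and 357, 1, 185 and 78 counts in icOVA tumors 15, 16, 18 and 2. Tumor 16 lay below every sgScramble tumor and the other 3 above all of them, and the log2 fold change of 3.28 (SE 1.25, edgeR adjusted p = 0.145) had a 95% interval from 0.37 to 6.18. Without icOVA tumor 16 it was 3.69 and was called, without icOVA tumor 15 it was 2.53 and in limma-voom 1.85, and neither of these was called.

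Resident macrophage genes were scarce, and 0 of the 3 tested were called by edgeR, DESeq2 or limma-voom, with 2 higher at an unadjusted p below 0.05 in edgeR. Folr2, the folate receptor beta of perivascular macrophages, had 4.66, 5.17 and 5.95 CPM in sgScramble tumors 1, 4 and 5 and 14.3, 4.58, 10.9 and 8.67 CPM in icOVA tumors 15, 16, 18 and 2. Tumor 16 again lay with the sgScramble tumors, and without it Folr2 was called, with a log2 fold change of 1.10 against 0.87 with all tumors (SE 0.35, edgeR adjusted p = 0.158). Timd4, a receptor for phosphatidylserine on long-lived resident macrophages, had 16 to 30 counts in sgScramble tumors and 28 to 55 in icOVA tumors, without overlap in CPM. Lyve1, a hyaluronan receptor that lymphatic endothelium also carries, had 38 to 62 counts and 56 to 103 counts. Vsig4, a complement receptor of resident macrophages, had 2, 2 and 5 counts in sgScramble tumors and 11, 5, 5 and 5 in icOVA tumors, too few for a test (log2 fold change 0.99, SE 0.55, without the filter).

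The TAM receptors Mertk and Axl bind phosphatidylserine on dying cells through bridging proteins, and Mertk alone was called. Mertk, the form most used by macrophages, had 19.6, 28.5 and 18.1 CPM in sgScramble tumors 1, 4 and 5 and 44.3, 36.7, 49.8 and 34.5 CPM in icOVA tumors 15, 16, 18 and 2. The groups did not overlap, and Mertk rose by 0.90 on the log2 scale (SE 0.19, edgeR adjusted p = 0.0404). When scaled to Ptprc, Mertk turned to -0.16 and was not called. Axl, which fibroblasts and many carcinoma cells also express, averaged 458 ± 49.7 CPM in the 3 sgScramble tumors and 446 ± 71.7 CPM in the 4 icOVA tumors (SD), with a log2 fold change of -0.04 and a 95% interval from -0.37 to 0.29. A difference between both receptors was not tested.

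Levels of different genes were compared per kb of exon. In sgScramble tumors Spp1 had the highest mean, at 4109 CPM per kb, followed by Lyz2 at 1026, Ctss at 590 and Apoe at 376 CPM per kb. In icOVA tumors Spp1 had 2019 and Lyz2 1932 CPM per kb, a gap within the spread between tumors, and Ctss had 957 CPM per kb. Timd4 and Vsig4 were the lowest in both groups, at 0.516 and 0.125 CPM per kb in icOVA tumors.

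Tumors of a group differed from each other in a shared way. Of the 31 tested genes, 18 had their highest value in icOVA tumor 18 and 6 in icOVA tumor 15, where 25.0% and 12.1% of all tested genes had theirs. The lowest value was in sgScramble tumor 1 for 17 genes, against 15.1% of all genes. Averaged over the 32 genes, sgScramble tumors 1, 4 and 5 had 5.12, 5.36 and 5.32 log2 CPM, while icOVA tumors 15, 16, 18 and 2 had 6.13, 5.59, 6.16 and 5.78. Every icOVA tumor was above every sgScramble tumor on this mean, a direction that flips for the median fold change when scaled to Ptprc, and tumor 16 was nearest to them. The subsets placed the tumors differently. Tumor 16 was the highest of the icOVA tumors for the mean of the monocyte genes, at 5.81 log2 CPM. Neither gene that was highest there was called, Chil3 at 11.9 against 5.57 to 7.94 CPM and Plac8 at 629 against 342 to 578 CPM. Ly6c2, which was called, was lowest there among the icOVA tumors, at 56.1 against 63.5 to 83.0 CPM. Tumor 16 was also the lowest of them for the scavenger and alternative genes, at 3.01 against 4.12 to 4.67 log2 CPM. The same held for the resident genes, at 0.24 against 0.41 to 1.04 log2 CPM. The low scavenger mean of tumor 16 rests on the 1 count of Retnla. Without Retnla, left out after seeing the data, tumor 16 had 4.31 log2 CPM, above the 3.69 to 4.06 of the sgScramble tumors and still below the 4.68 to 4.95 of the other icOVA tumors.

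**Figure D3:**
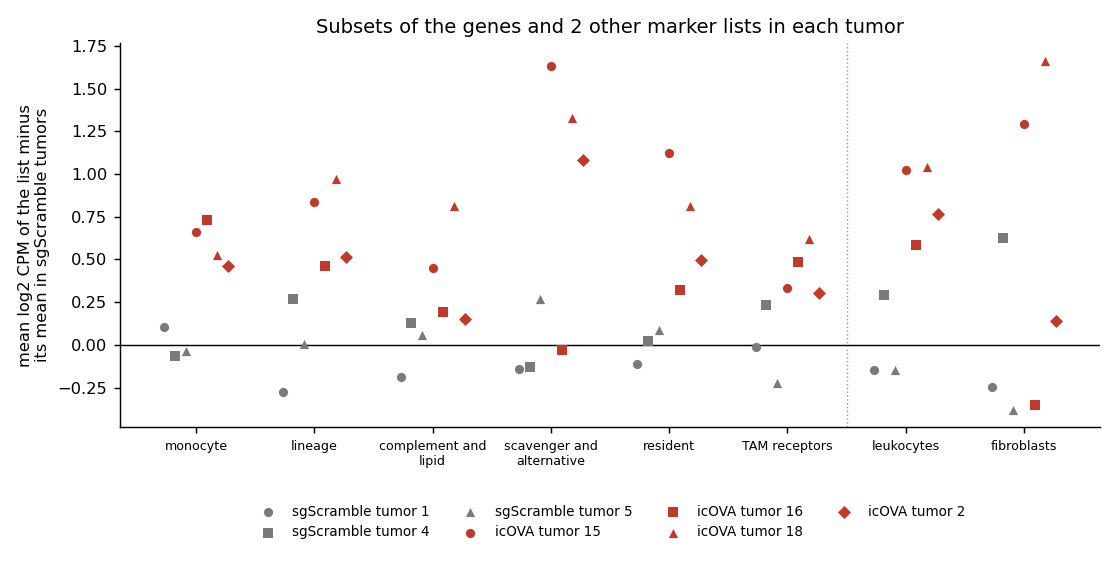
Mean log2 CPM of each subset in each tumor minus the mean of the sgScramble tumors, beside the leukocyte and fibroblast lists (right of the dotted line). icOVA tumor 16 lies at -0.03 for the scavenger and alternative genes (0.45 without Retnla) and at -0.35 for fibroblasts, where icOVA tumors 15 and 18 lie at 1.29 and 1.66.

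Marker lists of other cells moved with some of these differences, and their part in them was not tested. Sums below are in CPM, first for sgScramble tumors 1, 4 and 5, then for icOVA tumors 15, 16, 18 and 2. The 8 fibroblast genes summed to 4680, 10880 and 4418, then 16700, 4005, 23590 and 6053, with Col1a1 the most abundant. Tumors 15 and 18 were thus the highest of all for fibroblast genes, as they were for 22 of the 31 tested macrophage genes and for 2790 of all 17489 tested genes (16%). The 22 were 7 of the 10 called higher, all but Ly6c2, Msr1 and Marco, where 289 of all 588 genes called higher (49.1%) had the same highest tumors, and 15 that were not called. Of the 8 fibroblast genes, 0 were called by edgeR, DESeq2 or limma-voom, and 1 was higher at an unadjusted p below 0.05 in edgeR. Leukocyte genes summed to 698, 940 and 678, then 1560, 1182, 1551 and 1290, with Cd52 the most abundant and 4 of 5 called higher. T cell genes summed to 84.4, 142 and 110, then 309, 195, 262 and 245, with Trac the most abundant and 6 of 7 called higher. Both lists had all icOVA tumors above all sgScramble tumors, and tumor 16 was again nearest to them.

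Neutrophils carry some of the lineage genes too, and their 9 markers summed to 55.9, 112 and 55.3, then 104, 131, 88.6 and 117, S100a9 being the most abundant. Of 6 tested, 0 were called by edgeR or limma-voom and 1 by DESeq2, with 2 higher at an unadjusted p below 0.05 in edgeR. Dendritic cell genes summed to 25.9, 32.7 and 23.6, then 50.1, 32.1, 67.7 and 54.7, with Ccr7 the most abundant. Of 8, edgeR and limma-voom called 1 higher, which was Siglech in edgeR, DESeq2 called 4, and 6 were higher at an unadjusted p below 0.05 in edgeR. NK cell genes summed to 46.2, 30.6 and 22.0, then 64.7, 27.6, 70.7 and 41.2, with Gzma the most abundant. Of 5, edgeR called 1 higher, Eomes, as many as at an unadjusted p below 0.05, DESeq2 called 1 and limma-voom 0. B and plasma cell genes summed to 13.3, 13.8 and 15.1, then 48.9, 19.8, 47.4 and 50.6, with Ighm the most abundant and 3 of 6 called higher by edgeR and DESeq2 and 2 by limma-voom. Neutrophil, dendritic and NK cell sums overlapped between the groups.

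Cancer epithelium genes summed to 4566, 4360 and 4413, then 4638, 4790, 2878 and 4369, lowest in tumor 18, with Krt18 the most abundant. Blood endothelium summed to 182, 257 and 164, then 409, 206, 502 and 325, with Cdh5 the most abundant. Lymphatic endothelium summed to 25.1, 51.6 and 22.5, then 43.6, 42.1, 83.5 and 41.2, with Pdpn the most abundant. Of these 3 lists, edgeR and limma-voom called 0 of 7, 0 of 5 and 0 of 5 genes, DESeq2 called 0, 4 and 1 higher, and 0, 5 and 1 were higher at an unadjusted p below 0.05 in edgeR. Adipocyte genes summed to 24.9, 24.3 and 23.7, then 56.0, 16.2, 75.99 and 43.1, with Fabp4 the most abundant. Skeletal muscle genes, with Acta1 the most abundant, summed to 54.9, 59.1 and 1.44, then 49.5, 120, 60.9 and 0.870. In these 2 lists edgeR and limma-voom called 0 of 4 and 0 of 5 genes, DESeq2 called 1 and 0, and 1 and 0 were higher at an unadjusted p below 0.05 in edgeR. No gene of the cell lists was called lower by edgeR, DESeq2 or limma-voom, and no marker of any of them was at 0 counts in all tumors.

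Chemokines, their receptors and adhesion molecules bring monocytes into tissue. Of 11 recruitment genes, 6 were called higher by edgeR and limma-voom and 8 by DESeq2, 9 were higher and 0 lower at an unadjusted p below 0.05 in edgeR, and the median log2 fold change was 0.70. The integrin chain Itga4 rose by 1.23 (SE 0.24) and Ccr2, the receptor through which classical monocytes leave the marrow, by 1.13 (SE 0.23), each with all 4 icOVA tumors above the sgScramble tumors (edgeR adjusted p of 0.0349 and 0.0370). T cells and other leukocytes carry these genes as well. Ccl8 was the most abundant per kb of this list and was not called (log2 fold change 0.70, SE 0.20, edgeR adjusted p = 0.0784). Among 13 genes around CSF1R and the myeloid transcription factors, 2 were called higher by edgeR and limma-voom and 6 by DESeq2, 6 were higher at an unadjusted p below 0.05 in edgeR, and the median was 0.61. Those called by edgeR were Csf2rb, the shared beta chain of the GM-CSF, interleukin-3 and interleukin-5 receptors, at 1.01 (SE 0.13, edgeR adjusted p = 0.0230), and Irf8, a transcription factor of monocyte and dendritic cell development, at 0.79 (SE 0.13, edgeR adjusted p = 0.0271), both with 4 of 4 icOVA tumors above the sgScramble tumors.

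Of 13 genes of interferon-activated macrophages, 4 were called higher by edgeR, 3 by limma-voom and 8 by DESeq2, 11 were higher at an unadjusted p below 0.05 in edgeR, and all 13 values were positive with a median of 0.58. Nos2, the inducible nitric oxide synthase, rose by 1.10 (SE 0.25), and Cd40 and Cd80, which engage T cells, by 0.96 (SE 0.17) and 0.86 (SE 0.15), all 3 without overlap (edgeR adjusted p from 0.0271 to 0.0469). Gbp2, an interferon-induced GTPase and the most abundant of the list, was not called (log2 fold change 0.29, SE 0.20). Of 10 tested genes of alternative activation, edgeR and limma-voom called 1 higher and DESeq2 4, and 6 were higher at an unadjusted p below 0.05 in edgeR. The gene called by edgeR was the cytokine gene Il10, which rose by 1.62 (SE 0.34, edgeR adjusted p = 0.0380) from 7 to 14 counts in sgScramble tumors to 24 to 47 in icOVA tumors. A list for lipid-handling macrophages held 12 genes, with signaling genes and proteases beside lipid genes, so its calls do not stand for lipid handling alone. Of these, 5 were called higher by edgeR, 6 by limma-voom and 7 by DESeq2. At an unadjusted p below 0.05 in edgeR, 7 were higher. Among those called were Syk, the kinase that DAP12 recruits, at 1.03 (SE 0.13, edgeR adjusted p = 0.0230), Fcer1g, an adaptor like Tyrobp, at 0.71 (SE 0.09, edgeR adjusted p = 0.0230), and the protease Ctsd, the most abundant, at 0.52 (SE 0.11, edgeR adjusted p = 0.0379). Of 9 tested genes of apoptotic cell clearance other than Mertk and Axl, 0 were called by edgeR or limma-voom and 2 were called lower by DESeq2, with 1 higher and 3 lower at an unadjusted p below 0.05 in edgeR, and the most abundant, Itgb5, had a log2 fold change of -0.54 (SE 0.13, edgeR adjusted p = 0.0545).

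Some genes share sequence with close relatives, so their separate counts are uncertain where the counting could split reads. Of the distinct stretches of 76 bases, the read length, in the transcripts of Ly6c2, 9.3% were also found in transcripts of Ly6c1, which endothelium expresses. Ly6c1 had 4555 to 7319 counts in sgScramble tumors and 5141 to 10538 in icOVA tumors and was not called (log2 fold change 0.52, SE 0.25), and Ly6c2 took 8.57%, 15.99% and 10.5% of the counts of the pair in sgScramble tumors, against 25.4%, 15.7%, 30.0% and 20.4% for the icOVA tumors. The share for Lyz2 was 5.8%, all with Lyz1, which had 104 to 150 counts against 37810 to 49747 of Lyz2 in sgScramble tumors and itself rose by 2.07 (SE 0.25, edgeR adjusted p = 0.0230, in 4 of 4 icOVA tumors). Chil3 shared 12.5%, mostly with Chil4, which had at most 13 counts in a tumor. Spp1 shared 8.4% with Gm42793, a transcript on the same strand that overlaps 18.8% of its exon bases. Csf2rb, of the pathway list, shared 7.0% with Csf2rb2, which rose alongside it by 1.02. Exons on the opposite strand overlapped 63.1% of the exon bases of Folr2 (Gm10602), 15.1% of Csf1r (Hmgxb3), 5.3% of Maf and 1.7% of Cx3cr1. The other 24 genes shared no such stretch and had no overlapping exon.

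PU.1, a transcription factor required for monocytes and macrophages, binds sites with the core GAGGAA. Promoter windows of 300 bases, 250 before and 50 after a gene's start, were given by RefSeq for GRCm38.p6, and 32 of them belonged to 25 of the genes, with none for Adgre1, Csf1r, Tyrobp, C1qa, Msr1, Maf and Lyve1. GAGGAA was found on either strand in 18 of these 32 windows (56.2%), against 28.3% of all 32851 windows, and GAGGAAGT, which contains it, in 6 (18.8%) against 3.20%. Both windows of Ly6c2 overlap and hold the same sites, and both count among the 18 and the 6. The gamma-activated site TTCNNNGAA was in 1 window, that of Chil3 (3.12% against 8.30%), the Maf site TGCTGAC in those of Retnla and Timd4 (6.25% against 4.67%), and the E-box CACGTG in 0 (7.15% of all). Genes called higher and genes not called both held GAGGAAGT, and a match says only that these letters are present. The 5 genes with it are shown because the windows place the same letters beside genes that rose (Ly6c2, Ctss), were not called (C1qc, Retnla) or had lower values (Spp1). They are chr15:75111922-75112221 on the minus strand, chr3:95526536-95526835 on the plus strand, chr4:136892865-136893164 on the minus strand, chr5:104434861-104435160 on the plus strand and chr16:48842359-48842658 on the plus strand, written from 5′ to 3′ of the gene, with GAGGAA or its complement TTCCTC in capitals.
Ly6c2: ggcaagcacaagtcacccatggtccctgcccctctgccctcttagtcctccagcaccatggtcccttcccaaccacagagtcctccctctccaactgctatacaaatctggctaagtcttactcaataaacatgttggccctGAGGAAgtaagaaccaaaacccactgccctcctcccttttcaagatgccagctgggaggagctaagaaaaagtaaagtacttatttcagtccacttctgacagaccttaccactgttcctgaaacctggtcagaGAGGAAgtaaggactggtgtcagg
Ctss: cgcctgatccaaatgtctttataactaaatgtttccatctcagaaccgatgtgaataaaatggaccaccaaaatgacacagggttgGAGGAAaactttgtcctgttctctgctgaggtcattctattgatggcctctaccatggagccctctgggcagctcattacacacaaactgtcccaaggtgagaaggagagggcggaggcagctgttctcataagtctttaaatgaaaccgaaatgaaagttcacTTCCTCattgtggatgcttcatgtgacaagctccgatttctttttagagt
C1qc: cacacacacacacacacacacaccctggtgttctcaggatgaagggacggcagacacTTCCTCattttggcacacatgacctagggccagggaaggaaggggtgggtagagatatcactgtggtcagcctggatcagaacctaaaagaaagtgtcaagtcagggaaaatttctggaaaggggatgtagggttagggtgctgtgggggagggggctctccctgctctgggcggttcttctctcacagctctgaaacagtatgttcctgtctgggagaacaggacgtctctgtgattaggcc
Spp1: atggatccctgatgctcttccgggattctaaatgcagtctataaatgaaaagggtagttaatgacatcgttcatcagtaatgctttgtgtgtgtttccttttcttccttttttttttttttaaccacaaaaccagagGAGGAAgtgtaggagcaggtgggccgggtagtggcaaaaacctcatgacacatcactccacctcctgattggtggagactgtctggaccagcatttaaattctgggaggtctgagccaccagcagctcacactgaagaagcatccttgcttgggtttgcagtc
Retnla: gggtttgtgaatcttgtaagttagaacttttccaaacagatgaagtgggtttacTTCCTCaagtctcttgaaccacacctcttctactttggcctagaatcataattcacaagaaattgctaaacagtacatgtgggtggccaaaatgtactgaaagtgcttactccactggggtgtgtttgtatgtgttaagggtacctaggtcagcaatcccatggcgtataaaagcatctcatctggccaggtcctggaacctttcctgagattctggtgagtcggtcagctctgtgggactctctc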

How the data were processed

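The authors deposited a table of raw read counts, not normalized, from TruSeq libraries sequenced as single reads of 76 bases. The labels name polyA RNA and the build mm10, whereas the methods name a stranded kit for total RNA. The aligner, the counting tool and the annotation are not given in the sources used here. Identifiers were matched to GENCODE M21 symbols without their version, which gave 22414 matches. Of these, 21803 also matched with their version, so the authors' annotation was probably not M21. Values per kb of exon, overlaps of exons and shared stretches may differ under their release. Genes were kept by filterByExpr of edgeR 4.0.16 in R 4.3.3 (minimum count 10, minimum total 15), and libraries were scaled by TMM. SE is the size of the log2 fold change over the square root of F. Log2 CPM has a prior count of 2. Alternatives used DESeq2 1.42.0, limma-voom 3.58.1, other scalings and filters, and each tumor left out. Exon lengths, coordinates and transcripts are those of M21. Of other lists, up to 3 called genes with the largest changes and the most abundant gene (CPM per kb) are named. The genes and lists were chosen with earlier results of these data known. Protein alignments of near-identical copies were not run.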

Additional observations from a re-analysis of the deposited data

Results flagged for a closer look

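Among the icOVA tumors, Csf1 in tumor 18 stood apart, with 7.10 log2 CPM where tumors 15, 16 and 2 had 6.83, 6.84 and 6.86, a gap of 0.905 of the range of the group. Vsig4 in tumor 15 stood apart at -1.49 log2 CPM, against -2.31, -2.30 and -2.22 in tumors 16, 18 and 2, a gap of 0.897 of the range, and rests on 11 counts against 5 in each of the others. Both exceeded the 95% critical value of Dixon's test for 4 values. These were 2 of 40 values examined, and chance gives about 1 in 20. The cause was not tested.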

How the results depend on the processing

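The groups have no tumor number in common, so tumors could not be paired. Scaled to Ptprc, which removes the rise of Ptprc itself, 70 genes of the table were called higher and 14053 lower, and 4 and 13 of the macrophage genes. The median log2 fold change turned to -0.49 for all macrophage genes, -0.76 for monocyte, -0.39 for lineage, -0.71 for complement and lipid, -0.53 for scavenger and alternative, -0.37 for resident and -0.63 for TAM receptor genes. Of the single genes, 24 reversed. Csf1 was at -0.75, Plac8 at -1.03, Chil3 at -0.49, Adgre1 at -0.47, Csf1r at -0.45, Cd68 at -0.28, Lyz2 at -0.19, Tyrobp at -0.40, Aif1 at -0.29, Ctss at -0.39, Ms4a7 at -0.71, C1qa at -0.82, C1qb at -0.62, C1qc at -0.76, Apoe at -0.71, Trem2 at -0.49, Mrc1 at -0.57, Cd163 at -0.54, Msr1 at -0.52, Maf at -0.79, Folr2 at -0.30, Lyve1 at -0.46, Timd4 at -0.37 and Mertk at -0.16.

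Scaled to Tbp, 631 genes were called higher and 199 lower, against 588 and 444 with TMM, and Axl turned to 0.0304. DESeq2 called 1558 genes higher and 1278 lower, and 1 macrophage gene lower. With each tumor left out, genes called higher ran from 0 to 1014, genes called lower from 0 to 716, macrophage genes called higher from 0 to 13, those called lower from 0 to 1, and the median of the monocyte genes from 0.17 to 0.63. Axl ran from -0.13 to 0.0672, Cx3cr1 from -0.25 to 0.17 and Plac8 from -0.0433 to 0.22. Beyond the scaling to Ptprc itself, no cause was tested. Fits with 1 tumor left out went both ways. Some called 0 genes, while 862, 1014 and 615 were called higher without sgScramble tumor 4, icOVA tumor 16 and icOVA tumor 18, against 588 with all tumors. Under the other alternatives with all tumors, 208 of 216 values of single genes had the same direction and call, 1 lost its call, 6 gained one and 1 turned its sign. With a tumor left out, 163 of 217 did, 42 lost the call, some at a larger value than with all tumors, 6 gained one and 6 turned their sign. With Retnla left out, a choice made after seeing the data, the mean of the scavenger and alternative genes in icOVA tumor 16 moved from 3.01 to 4.31 log2 CPM. A prior count of 0.5 moved 1 of 64 group means of log2 CPM by more than 1 SD, that of Vsig4 in sgScramble tumors. Groups of 3 and 4 tumors and the few counts of Vsig4, Timd4, Lyve1, Retnla and Marco limit the precision of their values.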
